A study of Mus musculus with 9 samples.

Results

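Secreted Wnt antagonists are extracellular proteins that limit signalling by Wnt ligands, and 9 of their genes were followed here over the ageing of cardiomyocyte cultures made from mouse embryonic stem cells. The genes were Sfrp1, Sfrp2, Sfrp4, Sfrp5 and Frzb of the frizzled-related family, Dkk1, Dkk2 and Dkk3 of the Dickkopf family, and Wif1. They were chosen by name out of 18193 genes measured, with earlier results of these data known. Their counts and medians beside those of all genes are therefore descriptions only. All 9 were found, on 17 of the 45101 probe sets of the array, and no member was dropped by a filter on low values. The cells came from the synp line, derived from R1 embryonic stem cells of a 129X1 x 129S1 background, and every culture carried a puromycin resistance gene (PAC) driven by the Ncx1 promoter. All cultures received the cytokines BMP4, Activin A, bFGF, FGF10 and VEGF, and from day 7 puromycin, which selects cells with an active Ncx1 promoter. The groups differed in age, with 3 arrays each at day 10, day 20 and day 30. The time since puromycin was first given grew with age, so age and length of selection cannot be told apart. The study rests on 1 line without a culture left unselected. Whether the 3 replicates came from separate differentiations is not stated, so the p-values below weigh differences only against the scatter of these samples, and that scatter may be technical.

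Wnt ligands bind Frizzled receptors together with the co-receptors Lrp5 or Lrp6 and, in the canonical branch of the pathway, stabilise beta-catenin, which then drives transcription with TCF/LEF factors. The frizzled-related proteins and Wif1 bind Wnt ligands outside the cell, whereas Dkk1 and Dkk2 bind the Lrp co-receptors, and Dkk3 is a divergent relative that is not a typical Lrp ligand. In the vertebrate embryo, canonical Wnt signalling promotes mesoderm formation, and its local inhibition afterwards favours formation of the heart from that mesoderm. Several of these genes are also used by connective tissue and cartilage.

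Values are log2 signals as deposited, 1 for each probe set and array, and each gene is represented by its brightest probe set (highest mean over the 9 arrays) unless said otherwise. Array medians lay between 5.48 and 5.56, and the median level over all genes was 6.63. Day 10 arrays were the most variable, with a median SD of a gene of 0.187, against 0.130 at day 20 and 0.137 at day 30 (log2, n = 3 each). All 10 cardiomyocyte markers examined, among them Myh6 and Tnnt2, had day means above the median of all genes at each age. Differences between ages are given with limma's moderated test over all 9 arrays, two-sided and adjusted over all 18193 genes by the Benjamini-Hochberg method, and a gene is said to have risen or fallen where the adjusted p was under 0.05. Each age enters 2 of the 3 pairwise comparisons, which are therefore not independent of each other.

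The regions upstream of 4 of the 5 members called in any comparison are printed, 1 called lower (Dkk1) and 3 higher (Sfrp2, Wif1 and Frzb). The calls of Dkk1 and Frzb were lost when certain single arrays were left out, whereas those of Sfrp2 and Wif1 held. A moderated F test over any days called neither Dkk1 (adjusted p = 0.057) nor Frzb (adjusted p = 0.051). Each region is the 250 bases before the gene start, 5′ to 3′ on the gene's strand, from RefSeq on build GRCm38.p6. Of the 9 members, 6 matched an entry in that table (Sfrp2, Sfrp5, Frzb, Dkk1, Dkk2 and Wif1). Dkk1 is at chr19:30549497-30549746 on the minus strand, Sfrp2 at chr3:83766071-83766320 on the plus strand, Wif1 at chr10:121033754-121034003 on the plus strand, and Frzb at chr2:80447397-80447646 on the minus strand. Capitals mark matches on either strand to the core of a TCF/LEF site (CTTTGAA or CTTTGAT or CTTTGTA or CTTTGTT) or to TATAAA, the core of a TATA box.
Dkk1: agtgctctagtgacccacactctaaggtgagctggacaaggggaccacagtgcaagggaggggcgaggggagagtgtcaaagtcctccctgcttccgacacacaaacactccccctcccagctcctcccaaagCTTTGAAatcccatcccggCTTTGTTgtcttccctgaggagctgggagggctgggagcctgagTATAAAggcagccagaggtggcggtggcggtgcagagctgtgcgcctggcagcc
Sfrp2: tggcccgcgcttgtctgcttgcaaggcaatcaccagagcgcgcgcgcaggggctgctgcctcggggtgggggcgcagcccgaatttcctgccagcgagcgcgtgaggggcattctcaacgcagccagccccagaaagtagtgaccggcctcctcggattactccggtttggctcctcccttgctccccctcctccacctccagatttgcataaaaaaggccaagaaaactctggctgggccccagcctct
Wif1: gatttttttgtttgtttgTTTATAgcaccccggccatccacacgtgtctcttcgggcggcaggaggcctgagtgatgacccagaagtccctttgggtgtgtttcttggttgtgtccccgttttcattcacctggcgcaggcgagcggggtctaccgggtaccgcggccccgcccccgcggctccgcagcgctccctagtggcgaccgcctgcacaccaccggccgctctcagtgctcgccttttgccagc
Frzb: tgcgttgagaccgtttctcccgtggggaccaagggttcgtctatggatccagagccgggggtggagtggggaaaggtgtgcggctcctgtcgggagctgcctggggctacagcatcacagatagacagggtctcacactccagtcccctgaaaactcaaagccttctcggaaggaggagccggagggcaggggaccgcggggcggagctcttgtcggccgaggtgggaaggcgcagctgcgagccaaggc
The Dkk1 stretch held 2 TCF/LEF cores, which began at positions -117 and -98 from the gene start, and TATAAA at -54. No TCF/LEF core was found in the other 3 stretches, and TATAAA was found in that of Wif1 only, on the opposite strand at -232. Over the 32851 promoters of the table, 14.8% held at least 1 TCF/LEF core in the same 250 bases and 12.4% held TATAAA. The 2 motifs do not overlap in any of these stretches, and a match describes letters in this window only.

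Between day 10 and day 20, 3 antagonists rose and 1 fell. Sfrp2, Dkk3 and Wif1 were each over 13-fold higher at day 20, and Dkk1 was lower. Over all genes, 14.0% were called in this comparison, 7.30% higher and 6.69% lower. The median difference of the 9 members was 0.53 (log2), beside -0.03 over all genes. Day 20 and day 10 arrays did not overlap for these 4 members, nor for 31.8% of all genes.

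Between day 20 and day 30 no antagonist passed the test with limma, and 0.335% of all genes did. Without adjustment, 1 member (Frzb) had a p under 0.05, beside 1974 of all genes, and each alternative processing that was tried also called 0 members. The median difference of the members was 0.33, beside 0.004 over all genes. For 1 member, Frzb, the day 30 arrays lay wholly above those of day 20, and 21.4% of all genes were separated in either direction.

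Between day 10 and day 30, Sfrp2, Frzb, Dkk3 and Wif1 rose and no antagonist fell. Over all genes, 21.1% were called, 11.2% higher and 9.92% lower. At an unadjusted p under 0.05, Dkk1 was the 1 further member and was lower, which made 5 of 9 members, beside 6219 of 18193 genes. The median difference of the members was 0.85, beside -0.03 over all genes. In these 4 members the day 30 and day 10 arrays did not overlap, as in 36.1% of all genes. The moderated F test over any days called 3 members (Sfrp2, Dkk3 and Wif1), beside 17.5% of all genes, and Frzb (adjusted p = 0.051) and Dkk1 (adjusted p = 0.057) stood just outside it.

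**Figure D1:**
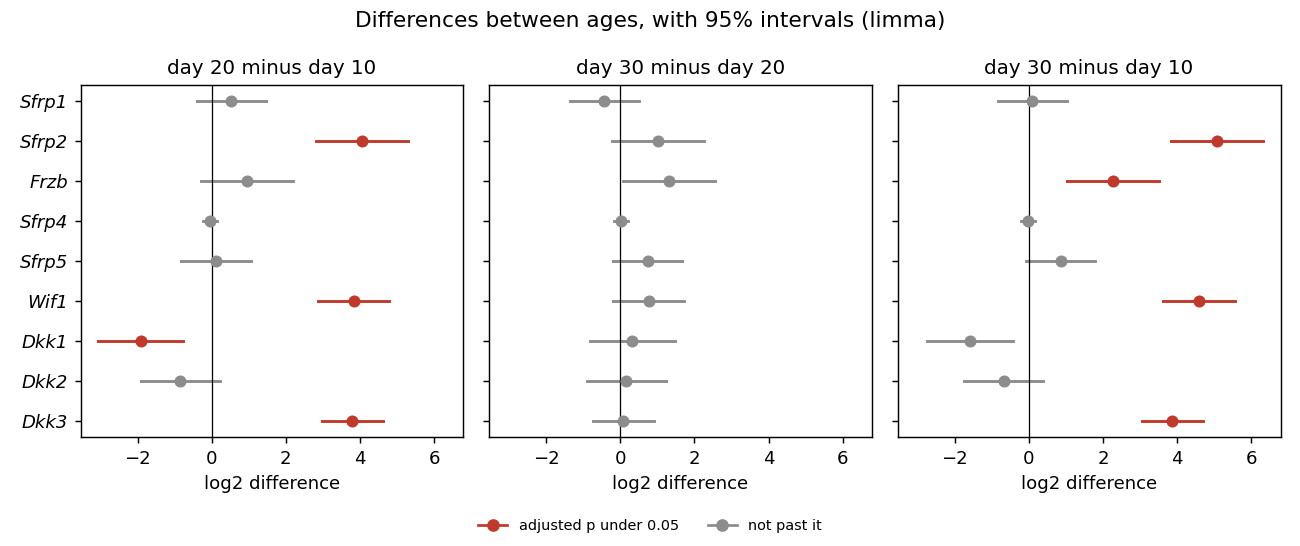
Log2 differences between ages for the 9 antagonists (points, brightest probe set) with 95% intervals from limma (bars), in red where the adjusted p was under 0.05. Sfrp2, Wif1 and Dkk3 lie near 4 in the first interval, all intervals but that of Frzb cross 0 in the second, and Frzb joins the called members over the whole period.

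Sfrp2, a Wnt-binding antagonist also known as a product of mesenchymal and stromal cells, had the largest difference of the 9 between day 30 and day 10. Its signal was 7.83, 6.03 and 7.82 on the day 10 arrays, 11.85, 11.30 and 10.70 on the day 20 arrays, and 11.63, 12.52 and 12.77 on the day 30 arrays (log2). Every array of day 20 and day 30 stood well above all of day 10, while day 20 and day 30 overlapped. The difference between day 20 and day 10 was 4.05 (SE 0.54, adjusted p = 0.0039), a 16.6-fold higher signal at day 20. Between day 30 and day 10 it was 5.08 (SE 0.54, adjusted p = 0.00078), a 33.7-fold higher signal, which put Sfrp2 at rank 33 of 18193 genes by the size of the rise. The further difference between day 30 and day 20 was 1.02 (95% interval -0.22 to 2.26, adjusted p = 0.56).

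Frzb, also called Sfrp3, a Wnt-binding antagonist first known from cartilage, had a difference spread over both intervals. On its brightest probe set it had 7.52, 8.17 and 9.17 at day 10, 9.37, 10.06 and 8.29 at day 20, and 10.46, 11.11 and 10.07 at day 30 (log2). Day 20 overlapped day 10 through its replicate 3, and all day 30 arrays were above both earlier ages, the lowest of them (10.07) only just above the highest of day 20 (10.06). The difference between day 30 and day 10 was 2.26 (SE 0.54, adjusted p = 0.021), a 4.79-fold higher signal. It was 0.95 between day 20 and day 10 (95% interval -0.29 to 2.19, adjusted p = 0.29) and 1.31 between day 30 and day 20 (0.06 to 2.55, adjusted p = 0.44). Its second probe set followed the first over the 9 arrays (Pearson 0.988) and differed by 2.31 between day 30 and day 10 (adjusted p = 0.016 over all probe sets). The call for day 30 against day 10 was lost without day 10 replicate 1, day 10 replicate 2, day 30 replicate 1 or day 30 replicate 2, with differences of 1.87, 2.20, 2.30 and 1.98 and adjusted p-values between 0.058 and 0.072.

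Wif1, which binds Wnt ligands through its own WIF domain, had a dim signal at day 10 and rose by day 20. It had 3.99, 3.17 and 3.40 at day 10, 7.60, 6.37 and 8.08 at day 20 and 7.86, 8.43 and 8.05 at day 30 (log2). All day 10 arrays were below all later ones, and day 20 replicate 2 was the lowest of the later 6. The difference was 3.83 between day 20 and day 10 (SE 0.42, adjusted p = 0.0017) and 4.59 between day 30 and day 10 (SE 0.42, adjusted p = 0.00041), a 24.1-fold higher signal. Between day 30 and day 20 it was 0.77 (95% interval -0.20 to 1.73, adjusted p = 0.58). Its probe set is of a kind shared by several transcripts of the gene, so that isoforms are not told apart.

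Dkk3, the divergent Dickkopf, had nearly equal day means of 11.27 and 11.35 at day 20 and day 30, against 7.48 at day 10 (log2). It had 6.57, 7.91 and 7.97 at day 10, 10.93, 11.62 and 11.26 at day 20, and 11.28, 11.47 and 11.28 at day 30 (log2). The day 30 arrays lay inside the range of day 20. The difference was 3.79 between day 20 and day 10 (SE 0.36, adjusted p = 0.00095), a 13.8-fold higher signal, and 3.87 between day 30 and day 10 (SE 0.36, adjusted p = 0.00043). Between day 30 and day 20 it was 0.08, with a 95% interval from -0.75 to 0.90 (adjusted p = 0.97). The second probe set of Dkk3 moved with the first (Pearson 0.997) and had differences of 3.80 between day 20 and day 10 and 3.86 between day 30 and day 10.

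Dkk1, the Lrp-binding antagonist that is itself a known target of beta-catenin signalling, was the 1 member called lower. It had 5.25, 7.07 and 6.99 at day 10, 4.58, 4.58 and 4.41 at day 20, and 4.56, 4.37 and 5.62 at day 30 (log2). Day 10 replicate 1 was far below the other day 10 arrays and close to the later ones, and day 30 replicate 3 was above it. Dkk1 fell to a mean of 4.52 ± 0.10 at day 20, against 6.44 ± 1.03 at day 10 (SD, n = 3 each), a difference of -1.92 (SE 0.50, adjusted p = 0.041). Between day 30 and day 10 the difference was -1.59 (SE 0.50, adjusted p = 0.058). The call at day 20 depended on single arrays: it was lost without day 10 replicate 2 or 3, without any 1 of the day 20 arrays, and without day 30 replicate 1 or 2 (highest adjusted p = 0.12). The day 30 difference passed without day 10 replicate 1 (-2.18, adjusted p = 0.0062) or without day 30 replicate 3 (-1.98, adjusted p = 0.044). The second Dkk1 probe set ran parallel at a lower signal (Pearson 0.946) and differed by -1.04 between day 20 and day 10 (adjusted p = 0.061 over all probe sets). Pluripotency markers moved with Dkk1: 4 of 5 (Pou5f1, Zfp42, Dppa5a and Sall4) were called lower at day 20 than at day 10, beside 6.69% of all genes. The summed linear signal of the 5 was 359, 718 and 1238 on the day 10 arrays, against 120 to 148 at day 20 and 104 to 117 at day 30. The part of these markers in the Dkk1 result was not tested.

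**Figure D2:**
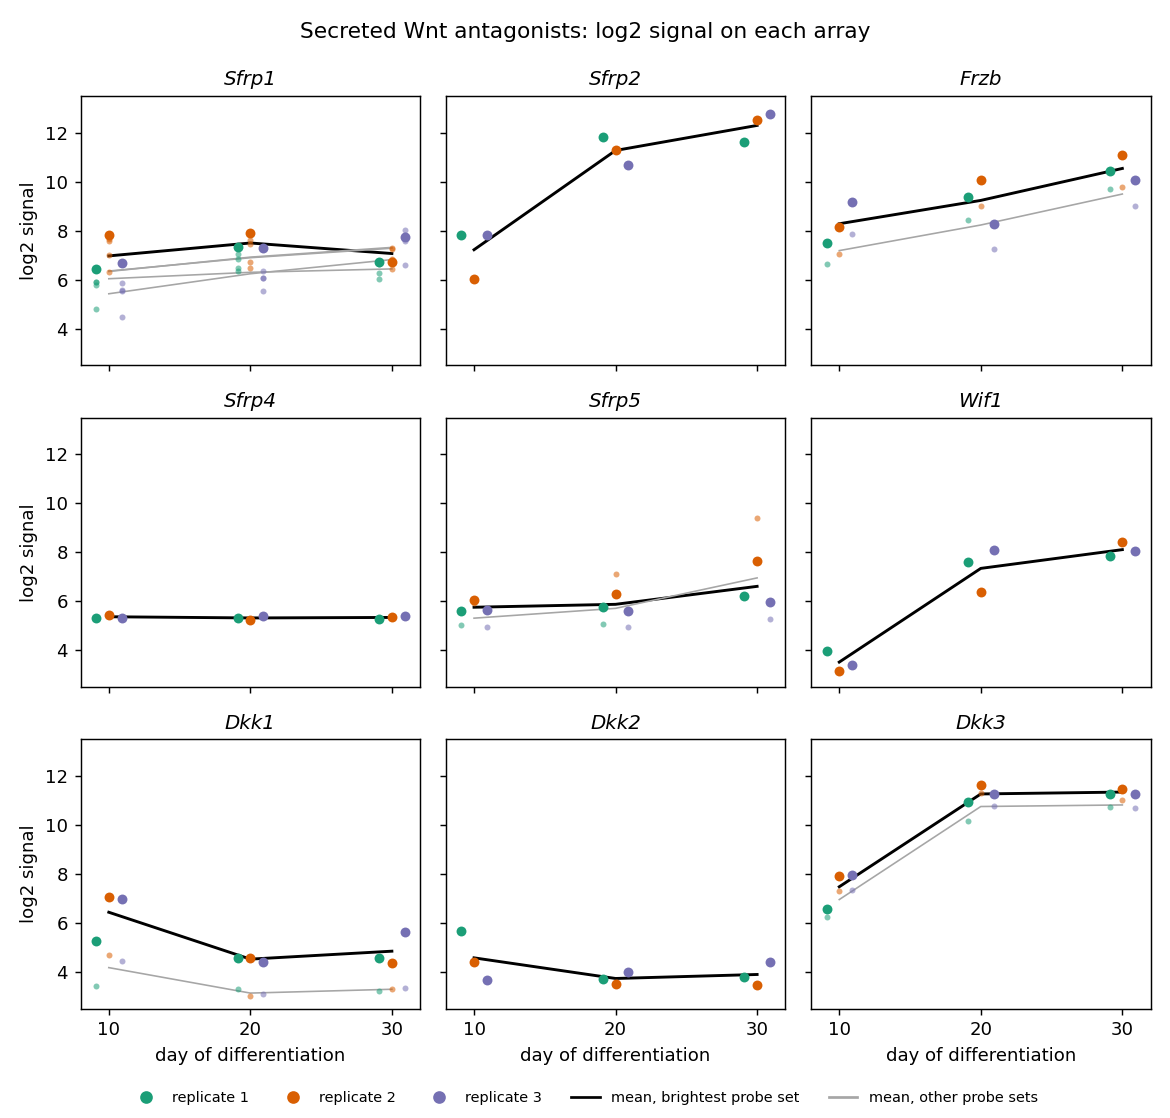
Log2 signal of the 9 antagonists on each array by day of differentiation, with large points for the brightest probe set, small points for the others, colours for the replicate number and lines for the mean of each age. Sfrp2, Wif1 and Dkk3 stand apart from day 10 at both later ages, the Frzb means are higher at each later age, and Sfrp4 is flat near 5.3.

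Sfrp1, Sfrp4, Sfrp5 and Dkk2 passed no test. Sfrp4, a Wnt-binding member also known from bone, was flat, between 5.24 and 5.45 on all 9 arrays, with a day 30 minus day 10 difference of -0.03 (95% interval -0.22 to 0.17). Dkk2, the other Lrp-binding member, had 5.66, 4.42 and 3.65 at day 10, 3.72, 3.49 and 3.99 at day 20, and 3.78, 3.49 and 4.42 at day 30. Its day 10 arrays overlapped both later ages, and its difference of -0.84 between day 20 and day 10 (adjusted p = 0.28) was -1.31 with adjusted p = 0.048 without day 10 replicate 3, and -0.30 without day 10 replicate 1. Sfrp4, Sfrp5, Dkk1 and Dkk2 had a mean below the median of all genes at every age, whereas Sfrp1, Sfrp2, Frzb, Dkk3 and Wif1 exceeded it at 1 age or more. For Sfrp5 this depended on the probe set. Its day 30 mean was 6.61 on the brightest and 6.96 on the second, beside a median of 6.63.

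Sfrp1, a Wnt-binding antagonist, was the member whose probe sets followed each other least. On the brightest of 5 it had 6.43, 7.81 and 6.68 at day 10, 7.32, 7.90 and 7.29 at day 20, and 6.74, 6.73 and 7.74 at day 30, and the ages overlapped. Its difference between day 30 and day 10 was 0.10 on that probe set (95% interval -0.84 to 1.03) and 0.40, 0.93, 0.98 and 1.40 on the other 4, none of which passed (lowest adjusted p = 0.15 over all probe sets). The probe set at 0.40 is of a kind whose probes can also bind related transcripts. The other 4 correlated with each other over the 9 arrays at 0.959 to 0.989, and the brightest correlated with them at 0.670 to 0.759. All 5 were highest at day 10 in replicate 2, where the probe set with the widest range had 6.99, against 4.81 in replicate 1 and 4.48 in replicate 3.

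Sfrp5, an antagonist expressed in the foregut of the mouse embryo, was highest on the replicate 2 array of every age. Its brightest probe set had 5.59, 6.05 and 5.64 at day 10, 5.76, 6.29 and 5.59 at day 20, and 6.23, 7.64 and 5.97 at day 30. The second probe set had 5.04, 5.93 and 4.97 at day 10, 5.07, 7.12 and 4.95 at day 20, and 6.20, 9.40 and 5.28 at day 30. The margin of replicate 2 was widest at day 30 on both, and the probe sets correlated at 0.978 over the 9 arrays. The difference between day 30 and day 10 was 0.85 on the brightest (95% interval -0.09 to 1.80, adjusted p = 0.19) and 0.34 without day 30 replicate 2. Several marker sums were also highest on the day 30 replicate 2 array. Of all 9 arrays it had the highest fibroblast (90156), cartilage (15275) and epicardial (713) sums, and of the day 30 arrays the highest endothelial (251) and smooth muscle (15683) sums. The margin was small for the fibroblast sum (86894 in day 30 replicate 1) and the smooth muscle sum (15520 in day 30 replicate 3). Its cardiomyocyte (85977), endoderm (216) and pluripotency (104) sums were the lowest of the day 30 arrays. The epicardial sum of 6 genes was 361 and 263 in replicates 1 and 3 of day 30. It was 581, 275 and 138 at day 10 and 245, 247 and 397 at day 20. Of the epicardial genes, Upk3b (7.71), Upk1b (7.40), Tbx18 (7.28) and Msln (7.17) were highest of day 30 in replicate 2, where Aldh1a2 (4.14) was lowest. No epicardial gene passed the test between ages (1 had an unadjusted p under 0.05 in day 30 against day 10), and Wt1 did not exceed 5.03 on any array. None of the 6 endoderm markers had a day mean above the median of all genes. Their part in the Sfrp5 signal was not tested.

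Counted by probe set rather than by gene, 4 of the 17 probe sets of the members were called between day 20 and day 10 (1 of Sfrp2, 2 of Dkk3, 1 of Wif1), beside 9.02% of 45037 probe sets. Between day 30 and day 10 the number was 6, with both probe sets of Frzb added, beside 15.1%. Between day 30 and day 20 it was 0, beside 0.135%. Dkk1, at an adjusted p of 0.052 in this larger set, was the member called by gene and not by probe set.

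A test of the later change minus the earlier change asked whether a member moved differently in the 2 intervals. With limma no member passed after adjustment, and 0.478% of all genes did. At an unadjusted p under 0.05 there were 4, beside 2820 of 18193 genes, namely Sfrp2 (-3.03), Dkk3 (-3.71) and Wif1 (-3.06), whose difference was larger in the earlier interval, and Dkk1 (2.24). Dkk3 was closest to the threshold (adjusted p = 0.053) and passed without day 10 replicate 1 or without day 10 replicate 3. With array weights, which gave the day 10 arrays between 0.29 and 2.68, all 4 passed. The share of all genes that passed under that setting is not given here. Frzb, with differences of 0.95 and 1.31 in the 2 intervals, did not pass (adjusted p = 0.90).

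Sfrp2, Wif1 and Dkk3, which share a step between day 10 and the later ages, had high correlations over the 9 arrays. Pearson's correlation was 0.947 between Sfrp2 and Wif1, 0.910 between Dkk3 and Wif1 and 0.899 between Sfrp2 and Dkk3. Frzb correlated with them at 0.643 to 0.761, Dkk1 at -0.817 with Wif1, and Sfrp1 with none above 0.366. Among 2375 genes whose day means spanned at least 1 log2 unit, those most like Sfrp2 were Csgalnact2 (0.981), the collagen gene Col1a1 (0.981) and Tmed3 (0.980). Those most like Dkk3 were Map1lc3a, Iqsec2 and Dlc1 (each 0.991), and those most like Wif1 were Slc39a13 (0.984), Adamtsl5 (0.981) and Zfp52 (0.980). For Sfrp5, which was added to this comparison after its values were seen, the nearest were Xdh (0.943), Scrg1 (0.936) and Lcn2 (0.931). These are descriptions over 9 arrays that fall into 3 ages.

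Markers of connective tissue rose between day 10 and day 30, as did Sfrp2, Dkk3, Wif1 and Frzb, although Frzb was not called between day 10 and day 20. Over all genes, 11.2% were called higher and 9.92% lower at day 30 than at day 10. Of 12 fibroblast and matrix markers, 11 were called higher in that comparison and 0 lower, and Pdgfra was not called. Of 6 smooth muscle markers, 2 were called higher (Smtn and Pdgfrb) and 2 lower (Cnn1 and Acta2). The summed linear signal of the fibroblast and matrix markers was 2751 to 8251 at day 10, 35069 to 68139 at day 20 and 78729 to 90156 at day 30. Of 6 cartilage markers, 5 were called higher (Acan, Col2a1, Sox9, Col9a1 and Comp), with a summed signal of 344 to 1657 at day 10, 2254 to 4928 at day 20 and 12665 to 15275 at day 30, and Matn1 did not exceed 3.76 on any array. The cardiomyocyte list had a summed signal of 53553 to 87042 at day 10, 73073 to 90446 at day 20 and 85977 to 92657 at day 30, with 1 of its 10 genes (Tnni3) called higher. In bulk RNA, fewer cells of a type and less RNA per cell cannot be told apart, and the part of the marker genes' cells in the antagonist signals was not tested.

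**Figure D3:**
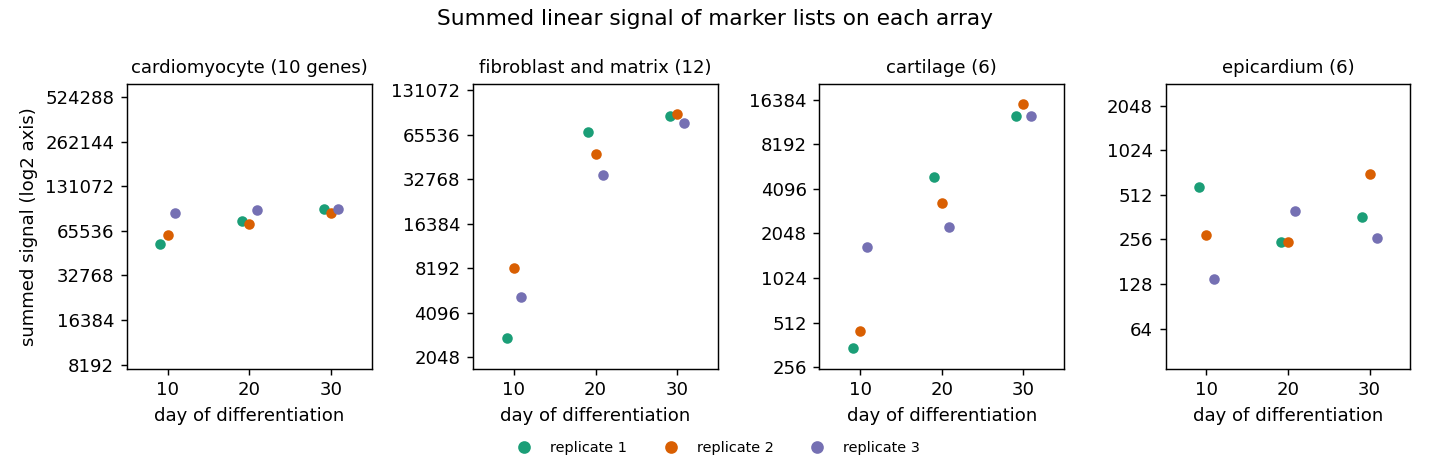
Summed linear signal of 4 marker lists on each array by day of differentiation (log2 axis, the same span of doublings in each panel), coloured by replicate number. The fibroblast and cartilage sums at day 30 exceed every day 10 array, the cardiomyocyte sums of the ages overlap, and the epicardial sum is highest in day 30 replicate 2.

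The rest of the Wnt pathway was described from lists of genes by role, with 11.2% of all genes called higher and 9.92% lower between day 30 and day 10. In day 20 against day 10, where 7.30% of all genes were called higher and 6.69% lower, 1 ligand rose and 2 fell, 4 receptors rose and 1 fell, 2 R-spondin branch genes rose, 1 target rose and 2 fell, and 2 intracellular components fell. Of these 15 calls, those of Fzd3, Lgr6 and Lef1 held whichever 1 array was left out. The other 12 were each lost without day 20 replicate 1 and without 3 to 9 arrays in all, the most for Wnt10a. The values that follow are log2 differences between day 30 and day 10 unless another is named. Of 8 other secreted inhibitors, 0 were called between day 30 and day 10 with limma after adjustment, and the median difference was 0.04. An unadjusted p under 0.05 was found for 3 (Sost, Igfbp4 and Notum), beside 6219 of 18193 genes. They included Sost, an Lrp-binding inhibitor of bone, which had 3.45, 3.57 and 3.67 at day 10, 6.63, 5.19 and 5.32 at day 20, and 4.06, 6.54 and 7.74 at day 30. Its day 30 arrays all exceeded those of day 10 but spread widely (difference 2.55, adjusted p = 0.063), and leaving out day 30 replicate 1 brought it past the threshold (3.58, adjusted p = 0.0057). Igfbp4, an IGF-binding protein that also blocks Wnt receptors, differed by 1.06 (adjusted p = 0.054), Notum by 0.30 and Cer1 by -0.13. Igfbp4 passed under 5 other ways of processing (adjusted p from 0.015 with array weights to 0.047 with an intensity trend and robust prior), without day 10 replicate 3 (0.026) and without day 20 replicate 1 (0.021). It differed more between day 30 and day 20 (1.43, adjusted p = 0.15), and the moderated F test over any days called it (adjusted p = 0.039).

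Of 19 Wnt ligand genes, 1 rose and 1 fell, with a median of -0.12. Wnt2 fell by 3.43 (SE 0.67, adjusted p = 0.0096), with 6.97, 9.38 and 6.36 at day 10, 4.37, 5.13 and 4.49 at day 20 and 3.91, 4.27 and 4.23 at day 30, so that all day 10 arrays were above all later ones. Wnt5b, a ligand mainly of branches without beta-catenin, rose by 0.84 (SE 0.14, adjusted p = 0.0054). Its day means of 4.40, 5.03 and 5.24 were all below the median of all genes. The next ligands by adjusted p were Wnt10a (-0.23, adjusted p = 0.073) and Wnt7a (-0.37, adjusted p = 0.078, and 0.013 without day 10 replicate 1).

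Of 16 receptor and co-receptor genes measured, 5 rose and 2 fell, with a median of 0.47. The Frizzled gene Fzd3 fell by 1.15 (SE 0.16, adjusted p = 0.0021), and Lrp5, a co-receptor that Dkk1 binds, rose by 1.46 (SE 0.20, adjusted p = 0.0021). The day means of Lrp5 (4.52, 5.38 and 5.98) stayed below the median of all genes. Lrp6, the other such co-receptor, had day means of 8.82, 9.18 and 9.28 and did not pass (0.46, adjusted p = 0.30). Fzd8 rose by 1.40 (adjusted p = 0.0069) and Fzd1 by 1.36 (adjusted p = 0.014). Fzd9 (1.65), Kremen1, a Dickkopf receptor (0.54), and Ror2, a Wnt5a receptor (-0.94), also passed. Of the 7, Fzd3, Lrp5 and Fzd8 passed whichever 1 array was left out. Fzd1 lost its call when day 30 replicate 1 or 3 was left out (at most 0.053 for the adjusted p). Fzd9 lost it without day 10 replicate 1 or 2 or any 1 day 30 array (0.084), Ror2 when any array other than day 10 replicates 1 and 3 was left out (0.12), and Kremen1 when any other than day 10 replicate 3 was (0.14). Ror2 was at -0.62 without day 10 replicate 3. Kremen1 turned to -0.08 on its most variable probe set.

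Of 9 genes of the R-spondin branch, which raises Wnt signalling by sparing Frizzled receptors from degradation, 3 rose and 0 fell, with a median of 0.001. The ligand gene Rspo2 had 3.90, 3.94 and 4.04 at day 10, 4.78, 4.95 and 4.23 at day 20, and 6.78, 6.62 and 6.57 at day 30. Its ages did not overlap, and it was the 1 gene of all the Wnt lists called between day 30 and day 20 (2.0, adjusted p = 0.015) as well as between day 30 and day 10 (2.69, SE 0.17, adjusted p = 0.00010). The R-spondin receptor genes Lgr6 (3.33, adjusted p = 0.0013) and Lgr5 (3.0, adjusted p = 0.0061) rose over the same period. Lgr6 had a mean of 7.44 at day 30, against 4.11 at day 10, and Lgr5 7.50 at day 30, against 4.50 at day 10. Rspo2 had a mean of 6.66 at day 30, against 3.96 at day 10. The day 10 means of Rspo2, Lgr6 and Lgr5 were dim, below the median of all genes (6.63). All 3 passed whichever 1 array was left out in day 30 against day 10. Rspo3 differed by -0.67 (adjusted p = 0.17).

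Of 13 target genes of beta-catenin signalling measured, 0 rose and 1 fell, with a median of -0.07. Lef1, which encodes a partner of beta-catenin and is itself a target, had 7.26, 6.79 and 7.02 at day 10, 5.53, 5.55 and 5.74 at day 20, and 5.11, 5.79 and 5.25 at day 30. It fell by 1.64 between day 30 and day 10 (SE 0.19, adjusted p = 0.0012) and by 1.42 between day 20 and day 10 (adjusted p = 0.0042), and it passed whichever 1 array was left out in both. Tnfrsf19 (-0.96, adjusted p = 0.082), Nkd2 (0.40, adjusted p = 0.11) and Ccnd1 (-0.96, adjusted p = 0.11) did not pass, though Tnfrsf19 did without day 10 replicate 1 (adjusted p = 0.016) and averaged over its probe sets (0.031), Nkd2 did without day 10 replicate 3 (adjusted p = 0.022), and Ccnd1 did on its most variable probe set (-1.35, adjusted p = 0.034). Axin2, a widely used readout of this signalling that was named after its values were seen, differed by -0.46 (adjusted p = 0.21). Between day 20 and day 10, Ccnd1 (-1.82, adjusted p = 0.019) and Nkd2 (0.64, adjusted p = 0.034) were called. The Ccnd1 call was lost without each of 3 arrays and that of Nkd2 without each of 7.

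Of 15 intracellular components, 1 rose and 3 fell, with a median of -0.09, and the sizes were small. Apc, a part of the complex that degrades beta-catenin, fell by 0.52 (SE 0.10, adjusted p = 0.0075). It passed whichever 1 array was left out, but not on its most variable probe set (-0.71, adjusted p = 0.067). Dvl2 (-0.47, adjusted p = 0.016), Dvl3 (-0.35, adjusted p = 0.043) and Gsk3a (0.36, adjusted p = 0.038) also passed. Dvl2 lost its call averaged over probe sets (adjusted p = 0.053) and on the most variable one (0.19). It also did when day 10 replicate 2 or day 30 replicate 3 was left out (at most 0.056), Gsk3a when any array other than day 10 replicate 3 or day 30 replicate 1 was (0.11), and Dvl3 when any other than day 20 replicate 2 was (0.13).

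**Figure D4:**
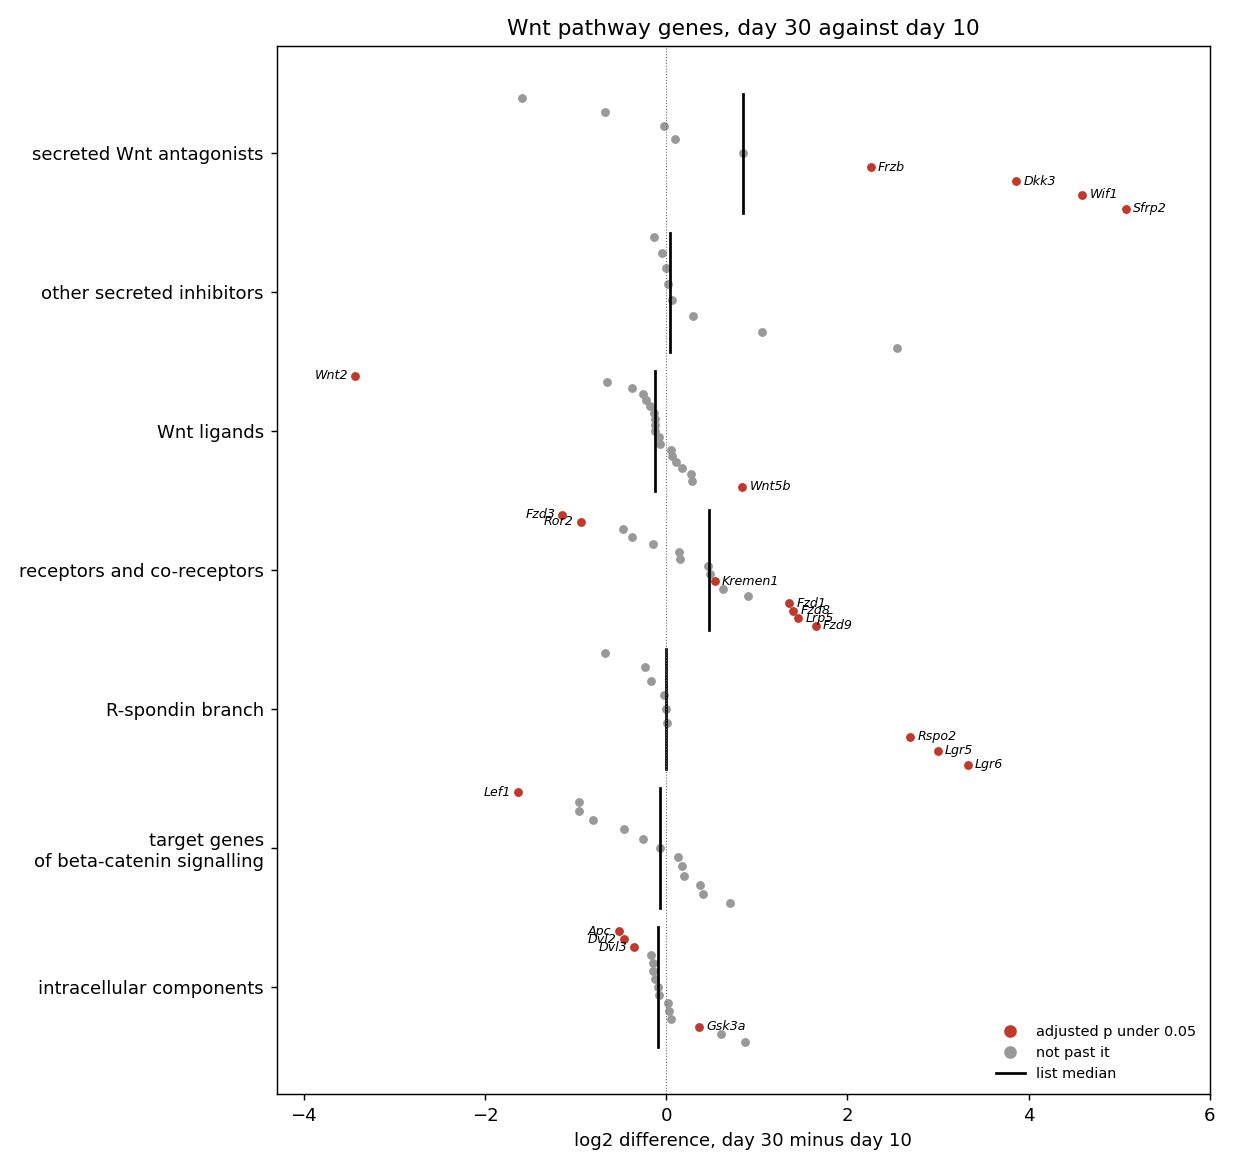
Log2 difference between day 30 and day 10 for each measured gene of the antagonists and of 6 further Wnt lists, with 1 point per gene (red and named where the adjusted p was under 0.05) and a black line at the list median. Sfrp2, Wif1 and Dkk3 lie on the far right and Wnt2 on the far left. Lgr6, Lgr5, Rspo2 and Frzb, in that order from the right, are the other genes above 2 that passed.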

How the data were processed

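Per the labels' protocols, biotin-labelled RNA copies made with an Affymetrix IVT kit were hybridised to one-colour arrays. The authors deposited 1 log2 signal per probe set and array. How these were normalized is not given in the sources used here, nor is the log base, which was inferred from their range (2.77 to 14.52), and whether a probe set was above background could not be judged.

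Of 45101 probe sets, 34958 had 1 symbol in the platform annotation, 932 several and 9211 none, and 64 array controls were left out. Of those with 1 symbol, 34754 were matched to the RefSeq table by gene identifier, and 0 symbols differed. A gene was its probe set with the highest mean, which gave 18193 genes. The model held 1 mean per day over the 9 arrays and was run in R 4.3.3 with limma 3.58.1, by lmFit and eBayes, with 6 residual degrees of freedom and 2.18 from the prior. It was also run on 45037 probe sets. The threshold was an adjusted p of 0.05, and the fit was tested on simulated data. The number of arrays limits the precision.

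The members and lists were chosen with earlier results of these data known. By the rule for names, all members were named, with up to 4 genes of each Wnt list, taken by their adjusted p between day 30 and day 10, with genes that a count of 5 or fewer singles out, and the 3 genes most correlated with each member called over any days. Lists were described by counts and medians. Alternatives changed the normalization, the probe set of a gene, the filter on dim genes, the variance prior, array weights, the samples in the fit, the replicate number as a block, the arrays left out and the features tested.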

Additional observations from a re-analysis of the deposited data

How the results depend on the processing

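The calls of Sfrp2, Dkk3 and Wif1 in day 20 against day 10 and in day 30 against day 10 held under all 19 alternatives tried for each. The call of Frzb in day 30 against day 10 was lost without each of 4 arrays, and that of Dkk1 in day 20 against day 10 was lost without each of 7 arrays, in a fit of those days alone (adjusted p = 0.072) and over all probe sets (adjusted p = 0.052). Dkk1 passed in day 30 against day 10 with array weights (-1.82) and with an intensity trend and robust prior (-1.59, adjusted p = 0.049). Leaving out 1 array in turn, 3 to 4 members were called in day 20 against day 10, 3 to 5 in day 30 against day 10, 0 in day 30 against day 20, 3 to 4 over any days and 0 to 1 between intervals. Over any days, 5 members were called with array weights and 5 with the intensity trend, against 3. Between intervals, 4 were called with array weights, 1 with the intensity trend and 1 without dim genes, against 0. With the replicate block, 1 member (Dkk3) was called between intervals, and no other count of members changed. The share of all genes called under each alternative is not given here, so a changed count cannot be read as particular to the members. In the main fit that share was 17.5% over any days and 0.478% between intervals. Arrays with the same replicate number did not deviate together throughout (correlations from -0.149 to 0.434, above 0.1 in 3 of 9 pairs, and day 10 replicate 3 correlated best with day 20 replicate 2), so the number was not taken as a pairing. Those 3 pairs (0.434, 0.301 and 0.254) nevertheless stood above every pair of different numbers (at most 0.238). Without dim genes, Sfrp4, Sfrp5, Dkk1 and Dkk2 had no value.

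Signs turned for small differences, of which that of Kremen1 had passed the test. With array weights, Sfrp1 was at -0.040 in day 20 against day 10 and -0.34 in day 30 against day 10, and Sfrp5 at -0.10 in day 20 against day 10. In day 30 against day 20, Sfrp1 was at 0.21 averaged over probe sets and 0.58 with the most variable one, against -0.43. Leaving out 1 array, Sfrp1 ran from -0.24 to 0.52 and Sfrp4 from -0.049 to 0.010 in day 30 against day 10, and Sfrp5 from -0.085 to 0.27 in day 20 against day 10. In day 30 against day 20, Sfrp4 ran from -0.020 to 0.068, Dkk1 from -0.062 to 0.57, Dkk2 from -0.10 to 0.37 and Dkk3 from -0.10 to 0.25. Among the other Wnt genes, whose alternatives were added after the data were seen, Cer1 was at 0.033 averaged over probe sets and 0.20 with the most variable one, and Kremen1 at -0.076 with the most variable one. Of those called in day 30 against day 10, Fzd1, Fzd3, Fzd8, Lrp5, Wnt2, Wnt5b, Rspo2, Lgr5, Lgr6 and Lef1 passed under every alternative other than leaving out 1 array. Kremen1 missed the threshold under 6 such alternatives, Gsk3a and Dvl3 under 4 each, Ror2 under 3, Dvl2 under 2, and Apc and Fzd9 under 1 each. With the replicate block, Tnfrsf19 passed (adjusted p = 0.013) and Gsk3a did not (0.053). With array weights, Sost, Igfbp4, Wnt7a, Wnt10a, Nkd2 and Tnfrsf19 passed. The cause of these shifts was not tested.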
